A study of Mus musculus with 26 samples.

Results

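The genes that copy nuclear DNA were followed in RNA of the mouse left ventricle: the replicative helicase, the origin recognition complex, the primase, the polymerases, the sliding clamp with its loader, the single-strand binding protein RPA, the enzymes that join Okazaki fragments and 4 enzymes of nucleotide supply. They were chosen by symbol from a list of 36 genes. All 36 were among the 15249 genes of the count table, and none was lost to the filter on low counts, which removed 0 genes. The study combined a transgene that overexpresses Mst-1, a kinase of the Hippo pathway encoded by Stk4, with a knockout of Lgals3, which encodes the secreted lectin galectin-3. Its groups were wild type (wt, 6 libraries), Mst-1 overexpression alone (MstTg, 7), galectin-3 knockout alone (Gal3Ko, 8) and both (Mst1Gal3, 5). All groups had the C57BL6 background, and every library came from left ventricle total RNA depleted of ribosomal RNA. In the design text, mice overexpressing Mst-1 stand for dilated cardiomyopathy. The labels do not name the promoter or the cell type that drives Mst-1, and the sources used here give no age or sex. Nothing in the labels states that replicates are separate animals, so p-values measure the spread between these libraries, which may be technical.

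Replication starts when the origin recognition complex loads the MCM helicase rings on DNA in G1. In S phase the activated helicase unwinds the fork, primase with polymerase alpha lays primers, and polymerases epsilon and delta, held by the PCNA clamp, extend them. Transcription of many of these genes rises before S phase under E2F factors, which the retinoblastoma proteins hold in check. Most adult cardiomyocytes have left the cell cycle, while fibroblasts, endothelial cells and immune cells of the heart can still divide.

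The 150 bases before the RefSeq start (GRCm38.p6) of 4 genes are printed because they span the range of the E2F-type letters searched and belong to genes whose values are described below. Capitals mark those letters, which were TTCCCGC or the letters TTGGCGC or the letters TTGCCGC or the letters TTCGCGC on either strand, with overlapping matches counted separately.
Mcm6, chr1:128359706-128359855, minus strand: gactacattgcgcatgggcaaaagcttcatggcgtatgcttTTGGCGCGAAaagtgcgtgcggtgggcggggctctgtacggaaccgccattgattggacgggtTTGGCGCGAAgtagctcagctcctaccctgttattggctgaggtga
Mcm5, chr8:75109359-75109508, plus strand: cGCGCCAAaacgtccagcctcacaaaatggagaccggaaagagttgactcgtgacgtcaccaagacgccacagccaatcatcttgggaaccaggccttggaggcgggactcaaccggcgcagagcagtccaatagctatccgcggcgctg
Mcm2, chr6:88898781-88898930, minus strand: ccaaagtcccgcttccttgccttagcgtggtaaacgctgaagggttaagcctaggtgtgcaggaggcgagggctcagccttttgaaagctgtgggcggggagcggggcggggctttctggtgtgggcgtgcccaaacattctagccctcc
Tyms, chr5:30073626-30073775, minus strand: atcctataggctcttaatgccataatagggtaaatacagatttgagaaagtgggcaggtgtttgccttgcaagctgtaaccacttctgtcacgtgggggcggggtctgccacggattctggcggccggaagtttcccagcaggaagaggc
Promoter windows (250 bases before to 50 after the start) were found for 32 of the 36 genes, and none for Mcm4, Prim2, Pole and Rfc2. At least 1 E2F-type match lay in 22 of the 32 (68.8%), against 10.9% of all 27025 genes with a window. Of the 10500 genes of the count table that had a window, 18.8% held a match. Mcm6 had 5 matches, with 4 of them in the stretch shown, where each TTGGCGC overlaps a TTCGCGC of the other strand. Pola1, the catalytic subunit of polymerase alpha, had 4, Mcm3 and Mcm5 had 3 each, and the 2 windows of Mcm7 had 4 in all. The matches of Mcm5 began 164, 152 and 149 bases before the start, so the stretch shown holds 1 of them, and those of Mcm3 began 20, 40 and 43 bases after it. The 10 genes without a match included Mcm2, Tyms, Dut, Pcna, Pola2 and Orc2, which says only that these letters are not in the window. The letters CCAAT, on either strand, were in 56.2% of the 32 and 41.1% of all genes with a window. A match is a description of the sequence and not a binding site.

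Library totals ran from 18580405 to 32663735 counts, and the 36 genes together took 5001 to 11146 counts of a library. Levels are given as CPM, counts scaled to library size with TMM factors, which assume that most genes do not differ between libraries. Stk4 had 22.4 to 26.1 CPM in wt, 846 to 1070 in MstTg, 21 to 25.9 in Gal3Ko and 840 to 1170 in Mst1Gal3. Lgals3 had 0.878 to 2.41 CPM in wt, 50.9 to 60.0 in MstTg, 1.47 to 2.74 in Gal3Ko and 2.54 to 5.43 in Mst1Gal3. Lgals3 was thus far lower in Mst1Gal3 than in MstTg. Yet every Mst1Gal3 library was above every wt library in Lgals3. It was also higher in Mst1Gal3 than in Gal3Ko at an adjusted p under 0.05, by a log2 fold change of 0.86. In the libraries labelled Gal3Ko its range overlapped that of wt. Its log2 fold change there was 0.41, in the direction opposite to a knockout and not called at an adjusted p under 0.05. Lgals3 therefore does not check that label. Below, with and without galectin-3 refer to the knockout in the group labels and not to the measured level of Lgals3 RNA. Transcripts of the mitochondrial genome took 29.2% to 35.5% of counts in wt, 14.4% to 23.3% in MstTg, 26.8% to 38.3% in Gal3Ko and 15.7% to 23.0% in Mst1Gal3. There were 6 libraries with over 30 CPM in the sum of the atrial genes Myl4, Myl7 and Sln: 1 of wt, 1 of MstTg, 3 of Gal3Ko and 1 of Mst1Gal3. In RNA of whole tissue, fewer cells of a type and less RNA per cell cannot be told apart.

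The 36 genes were expressed at low to moderate levels. Their summed level was 313 to 343 CPM in wt, 342 to 368 in MstTg, 327 to 347 in Gal3Ko and 322 to 332 in Mst1Gal3. Per kilobase of annotated exon, Rfc1, the large subunit of the clamp loader, stood highest in wt (7.55 ± 0.39 CPM per kb, SD, n = 6), followed by Rpa1 (6.93 ± 0.51) and the polymerase delta subunit Pold2 (6.24 ± 0.46). Pole2, a subunit of polymerase epsilon, stood lowest (0.195 ± 0.048 CPM per kb), below Prim1 (0.262 ± 0.098) and Tyms (0.316 ± 0.063). From the highest to the lowest the level per kb differed 38.7-fold. The exon length joins the exons of all annotated transcripts of a gene, for example 11012 bases for Rrm1 and 6089 for Tyms. A level per kb can thus come out lower than over the transcript in use, which limits this order. Each gene's wt range overlapped that of its neighbour in this order, in all 35 neighbouring pairs. The helicase genes lay between 1.96 ± 0.31 CPM per kb for Mcm4 and 0.541 ± 0.057 for Mcm5.

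Mst-1 overexpression with galectin-3 present raised the helicase genes as a group and moved the rest of the list in both directions. In MstTg against wt, 15 of the 36 genes were higher and 5 lower at a Benjamini-Hochberg adjusted p under 0.05 in edgeR's quasi-likelihood test, called higher and called lower from here on. Among all 15249 genes tested, 28.2% were called higher and 26.8% lower, 55% in all. For the 36 genes these shares were 41.7% and 13.9%, and the median log2 fold change was 0.17 against 0.02 for all genes. All 6 helicase genes were called higher. So were 2 of 4 primase genes, 1 of 2 Okazaki fragment genes, 2 of 4 nucleotide genes (with 1 lower), 2 of 6 clamp and loader genes (1 lower), 1 of 4 origin genes (1 lower), 1 of 7 polymerase subunits (1 lower) and none of the 3 RPA subunits (1 lower). Library ranges did not overlap for 7 genes that were higher (Mcm2, Mcm5, Mcm6, Mcm7, Pola2, Lig1 and Tyms) and for Dut, which was lower, where 15.9% and 16.2% of all genes were so separated.

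**Figure D1:**
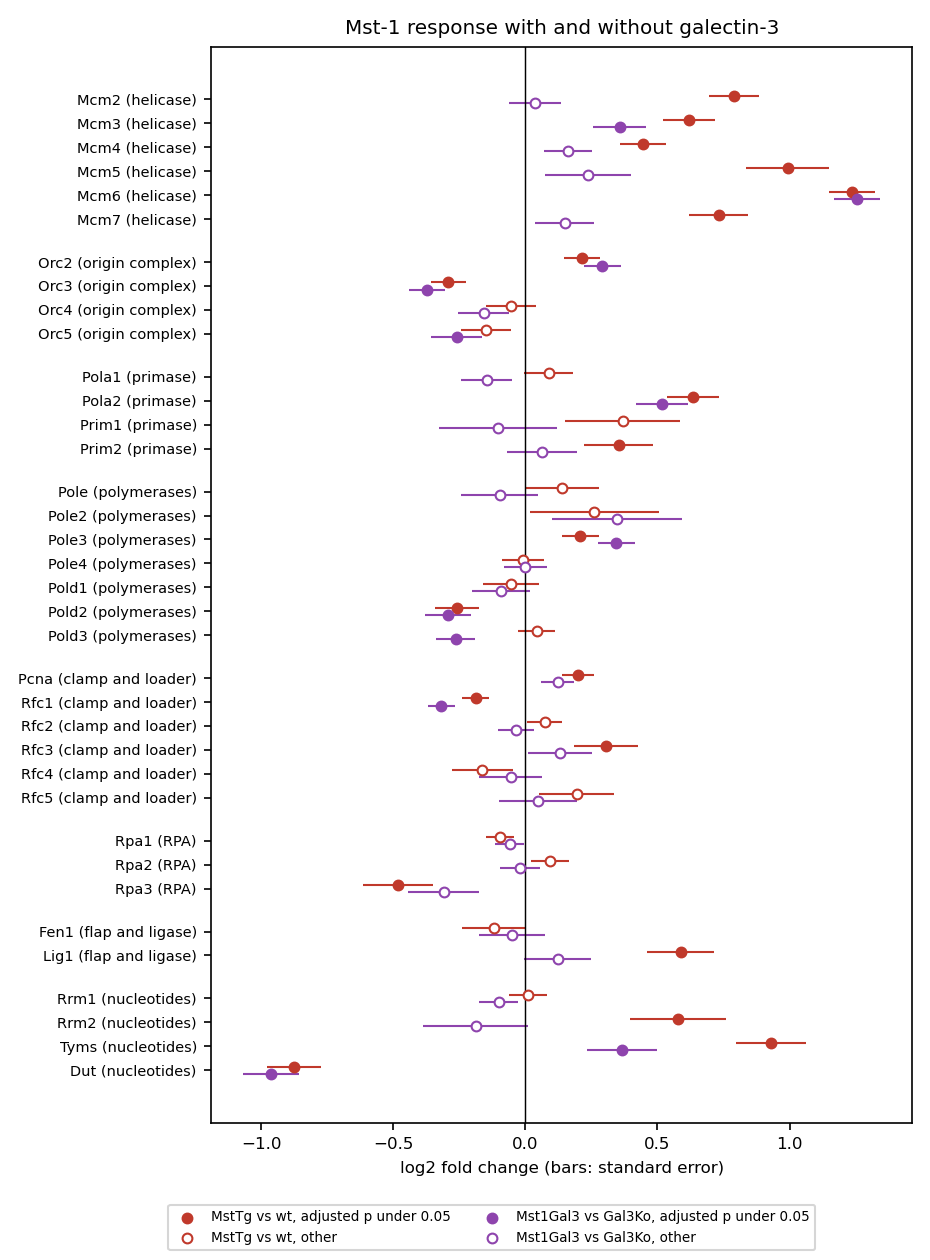
Log2 fold change (horizontal axis) of each of the 36 genes, grouped by role, in MstTg against wt (red) and in Mst1Gal3 against Gal3Ko (purple). Bars are standard errors and filled points have an adjusted p under 0.05. Mcm6 lies near 1.24 in both comparisons, Dut lies near -0.9 in both, and Mcm2 lies at 0.79 in the first and 0.04 in the second.

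Mcm6 encodes a subunit of the MCM2-7 ring and lies on the minus strand at chr1:128331590-128359664 (GRCm38). Its lowest, median and highest levels were 5.81, 7.23 and 8.18 CPM in the 6 wt libraries and 14.8, 16.1 and 20.1 CPM in the 7 MstTg libraries. In the 8 Gal3Ko libraries they were 5.45, 6.18 and 7.20 CPM, and the 5 Mst1Gal3 libraries had 14, 15.4, 15.1, 16.4 and 13.7 CPM. Every library with the transgene was above every library without it. The log2 fold change was 1.24 ± 0.09 (SE; 2.36-fold, adjusted p = 1.28e-13) in MstTg against wt and 1.26 ± 0.09 (2.39-fold, adjusted p = 1.09e-13) in Mst1Gal3 against Gal3Ko. The difference between these Mst-1 responses was 0.02, with a 95% interval of -0.22 to 0.26.

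Mcm2, another subunit of the ring, lies on the minus strand at chr6:88883474-88898780. Its lowest, median and highest levels were 5.49, 5.99 and 8.15 CPM in wt, 9.23, 10.2 and 12.6 CPM in MstTg and 5.43, 5.97 and 7.24 CPM in Gal3Ko. In Mst1Gal3 the libraries had 5.71, 5.60, 7, 6.53 and 6.65 CPM. Only the MstTg libraries stood apart, and the other 3 groups overlapped one another. Mcm2 rose by a log2 fold change of 0.79 ± 0.10 (1.73-fold, adjusted p = 1.80e-08) in MstTg against wt. In Mst1Gal3 against Gal3Ko the log2 fold change was 0.04, with a 95% interval of -0.16 to 0.23 and an adjusted p of 0.789. The interaction, the response without galectin-3 minus that with it, was -0.75 ± 0.14 (95% interval -1.02 to -0.48, adjusted p = 0.00844).

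Mcm5 (plus strand, chr8:75109569-75128439) had lowest, median and highest levels of 1.85, 2.18 and 2.53 CPM in wt and 3.17, 4.03 and 6.47 CPM in MstTg. They were 1.5, 2.12 and 3.09 CPM in Gal3Ko, and the Mst1Gal3 libraries had 2.54, 2.02, 3.10, 2.95 and 2.55 CPM. All MstTg libraries lay above all others. The log2 fold change was 0.99 ± 0.16 (1.99-fold, adjusted p = 2.33e-06) with galectin-3 and 0.24 ± 0.16 (adjusted p = 0.225) without it, and the interaction was -0.76 ± 0.23 (adjusted p = 0.126), which did not pass.

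Mcm7 (minus strand, chr5:138164583-138172422), whose gene hosts the microRNAs Mir25 and Mir93, had lowest, median and highest levels of 4.79, 6.07 and 6.70 CPM in wt and 8.37, 9.77 and 11.5 CPM in MstTg. They were 4.40, 7.37 and 8.93 CPM in Gal3Ko, and the Mst1Gal3 libraries had 9, 7.45, 6.74, 8.68 and 7.73 CPM. Mcm7 separated the MstTg libraries from wt but not from Gal3Ko or Mst1Gal3. Its log2 fold change was 0.73 ± 0.11 (adjusted p = 1.27e-06) with galectin-3 and 0.15 ± 0.11 (adjusted p = 0.278) without it. The interaction of -0.58 ± 0.16 missed the threshold (adjusted p = 0.0823) and passed it in DESeq2 (0.0240), without MstTg replicate 5 (0.0476) and without Gal3Ko replicate 2 (0.0182).

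Mcm3 (minus strand, chr1:20802968-20820312) had lowest, median and highest levels of 3.97, 4.32 and 6.40 CPM in wt, 6.06, 7.25 and 7.85 CPM in MstTg and 3.47, 4.39 and 4.82 CPM in Gal3Ko. The Mst1Gal3 libraries had 5.19, 5.48, 5.49, 6.07 and 5.32 CPM, all above the Gal3Ko libraries. In wt, 1 library of 6.40 CPM reached into the MstTg range. Mcm3 rose by a log2 fold change of 0.62 ± 0.10 (adjusted p = 2.33e-06) with galectin-3 and 0.36 ± 0.10 (adjusted p = 0.00334) without it. Mcm4 (minus strand, chr16:15623897-15637400) had lowest, median and highest levels of 5.91, 6.56 and 8.67 CPM in wt and 5.74, 6.76 and 7.42 CPM in Gal3Ko. Its wt range overlapped that of MstTg, which began at 8.54 CPM. Mcm4 rose by 0.44 ± 0.09 (adjusted p = 5.81e-05) with galectin-3 and had a log2 fold change of 0.16 ± 0.09 (adjusted p = 0.133) without it.

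**Figure D2:**
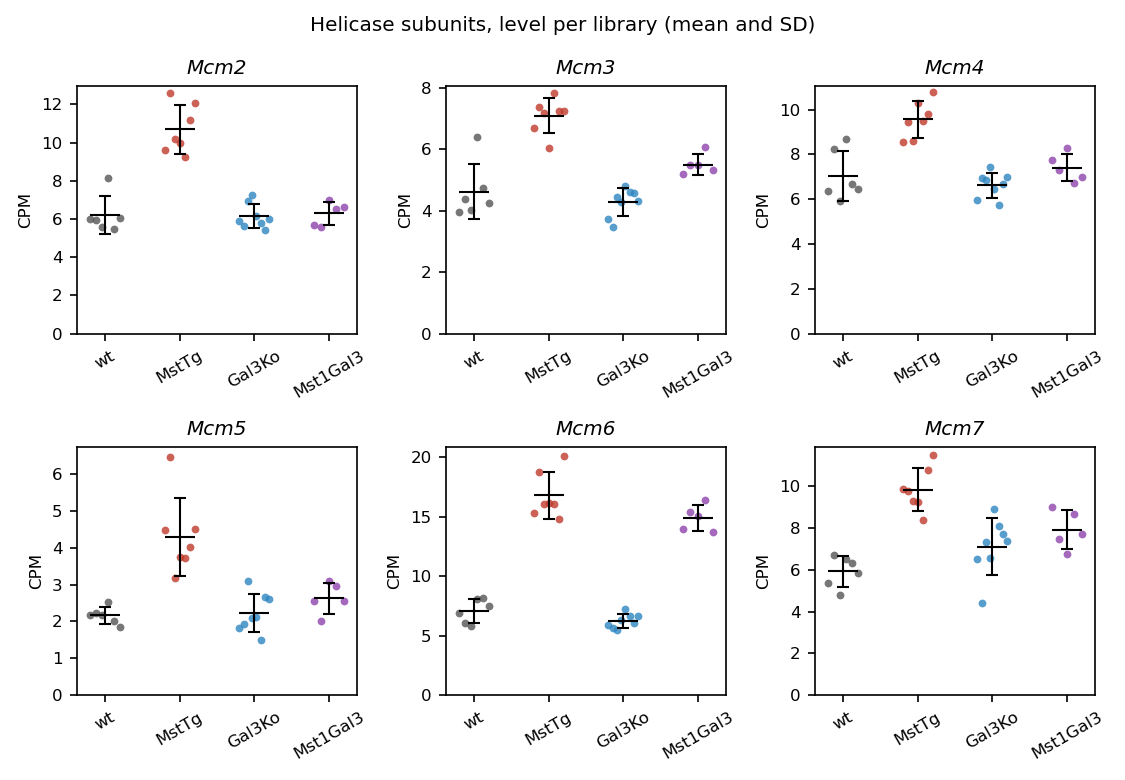
Level in CPM (vertical axis, from 0) of the 6 MCM helicase genes in each library, by group. Points are libraries and black bars the mean and SD. For Mcm2 and Mcm5 the MstTg libraries lie above the other 3 groups, and for Mcm6 both groups with the transgene (13.7 to 20.1 CPM) lie above both without it (5.45 to 8.18 CPM).

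The 6 proteins of the ring act in equal numbers, yet their transcripts did not change in proportion. Of the summed length-scaled MCM2-7 transcripts, Mcm6 made up 20.4% ± 2.3 in wt (SD, n = 6), 27.6% ± 1.5 in MstTg (n = 7), 18.1% ± 1.4 in Gal3Ko (n = 8) and 31.7% ± 1.6 in Mst1Gal3 (n = 5). The share of Mcm2 was 11.9% ± 0.9, 11.8% ± 0.7, 12.0% ± 1.2 and 8.98% ± 0.82 in the same order. Mcm4 went from 26.2% ± 1.9 in wt to 20.6% ± 1.5 in MstTg, and from 25.2% ± 2.7 in Gal3Ko to 20.5% ± 1.8 in Mst1Gal3. There were 1.16 ± 0.19 counts of Mcm6 per count of Mcm2 in wt, 1.57 ± 0.14 in MstTg, 1.02 ± 0.14 in Gal3Ko and 2.38 ± 0.28 in Mst1Gal3. The Mst1Gal3 libraries ranged from 2.05 to 2.75 in this ratio and lay above all others. These ratios are formed within a library and do not depend on its scaling.

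The origin recognition complex marks origins and loads the helicase. Of its 4 genes listed, Orc2 rose in both Mst-1 comparisons, by 0.21 ± 0.07 (adjusted p = 0.00833) and 0.29 ± 0.07 (adjusted p = 0.000731). Orc3 fell in both, by 0.29 ± 0.07 (adjusted p = 0.000389) and 0.37 ± 0.07 (adjusted p = 2.98e-05), from a median of 27.4 to 22.5 CPM and from 28.3 to 22 CPM. Orc4 was called in neither, with log2 fold changes of -0.06 and -0.16. Orc5 fell in Mst1Gal3 against Gal3Ko (-0.26, adjusted p = 0.0221), a call lost without Mst1Gal3 replicate 2 (0.0642) or 4 (0.0757). In MstTg against wt the log2 fold change of Orc5 was -0.15 (adjusted p = 0.181), and it was called lower without MstTg replicate 7 (0.0366). Exons of Orc2 share 29.8% of their bases with Nif3l1 on the opposite strand. The sources used here do not give the strand setting of the counting, so the counts of Orc2 are uncertain.

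The primase and polymerase alpha make the primers of both strands. Pola2, the accessory subunit of polymerase alpha, lies on the minus strand at chr19:5940542-5964202. Its lowest, median and highest levels were 5.96, 6.91 and 8.51 CPM in wt, 9.59, 10.8 and 12.3 CPM in MstTg and 5.87, 6.89 and 9.49 CPM in Gal3Ko. The Mst1Gal3 libraries had 10.7, 10.1, 9.20, 10.7 and 11.7 CPM, and 1 of them fell inside the Gal3Ko range. Pola2 rose by 0.63 ± 0.10 (adjusted p = 2.03e-06) with galectin-3 and by 0.52 ± 0.10 (adjusted p = 4.76e-05) without it. The catalytic subunit Pola1 was called in neither comparison, at log2 fold changes of 0.09 and -0.15. Prim2, the large primase subunit, was called higher in MstTg against wt (0.35 ± 0.13, adjusted p = 0.0216). That call was lost without wt replicate 3 (0.0505) or MstTg replicate 1 (0.0505) or 7 (0.0509), and with only these groups in the fit (0.0527). Prim1, the catalytic primase subunit, had 0.671 to 1.55 CPM in wt and 0.888 to 1.72 CPM in MstTg, and was not called (0.37 ± 0.22, adjusted p = 0.155).

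Of the 7 subunits of the polymerases that extend the strands, 5 did not pass the test in MstTg against wt and 4 did not in Mst1Gal3 against Gal3Ko. Pole3, a small subunit of polymerase epsilon that also serves in chromatin complexes, rose by 0.21 ± 0.07 (adjusted p = 0.0129) with galectin-3 and 0.34 ± 0.07 (adjusted p = 0.000136) without it. The first call was lost without the 6 libraries of high atrial level (0.0530). Pold2, a subunit of polymerase delta, fell by 0.26 ± 0.08 (adjusted p = 0.00973) and 0.29 ± 0.09 (adjusted p = 0.00489), and the second call was lost without those libraries (0.101). Pole, the catalytic subunit of polymerase epsilon, and Pole2 were called in neither comparison.

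Pole4, Rrm1, Pold3 and Pold1 had the smallest changes in MstTg against wt. Pole4, the partner of Pole3, had lowest, median and highest levels of 8.64, 9.57 and 10.8 CPM in wt, 8.73, 9.62 and 10.6 in MstTg and 7.95, 10 and 11.9 in Gal3Ko, and 10.4, 9.10, 9.16, 10.8 and 9.39 CPM in Mst1Gal3. All 4 groups overlapped, and the log2 fold change was -0.01 (95% interval -0.16 to 0.15). Pold1, the catalytic subunit of polymerase delta, had lowest, median and highest levels of 7.72, 9.22 and 10.2 CPM in wt, 6.32, 8.47 and 11 in MstTg and 7.54, 9.54 and 10.2 in Gal3Ko, and 9.99, 7.04, 7.42, 10.4 and 8.63 CPM in Mst1Gal3. Its groups overlapped too, at a log2 fold change of -0.05 (95% interval -0.26 to 0.15). Pold3, a further delta subunit, had lowest, median and highest levels of 7.29, 8.81 and 9.06 CPM in wt, 7.92, 8.56 and 9.94 in MstTg and 7.81, 8.80 and 10.2 in Gal3Ko, and 7.21, 7.50, 7.87, 7.17 and 7.81 CPM in Mst1Gal3. The Mst1Gal3 libraries all lay below the MstTg libraries. Pold3 had a log2 fold change of 0.04 (95% interval -0.10 to 0.18) in MstTg against wt and fell by 0.26 ± 0.07 (adjusted p = 0.00319) in Mst1Gal3 against Gal3Ko, and its interaction was -0.31 ± 0.10 (adjusted p = 0.177).

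PCNA, the clamp that holds polymerases on DNA and a common marker of dividing cells, changed little. Pcna (minus strand, chr2:132249162-132253314) had lowest, median and highest levels of 12.0, 13.1 and 15.5 CPM in wt, 15.1, 15.6 and 16.2 CPM in MstTg and 12.9, 14.2 and 14.7 CPM in Gal3Ko. The Mst1Gal3 libraries had 14.6, 15.2, 13.8, 15.5 and 16.8 CPM. The top of the wt range overlapped the MstTg libraries. Pcna rose by 0.20 ± 0.06 (1.15-fold, adjusted p = 0.00595) in MstTg against wt, and its log2 fold change of 0.12 ± 0.06 in Mst1Gal3 against Gal3Ko was not called (adjusted p = 0.0972), except without Mst1Gal3 replicate 3 (0.0497). Processed pseudogenes of Pcna (Pcna-ps1 and Pcna-ps2) are annotated, and the sources used here do not say how reads shared with them were counted.

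Rfc1, the large subunit of the loader that opens the clamp, fell in both Mst-1 comparisons, by 0.19 ± 0.05 (adjusted p = 0.00206) and 0.32 ± 0.05 (adjusted p = 5.45e-06). Its levels were 42.0 to 48.6 CPM in wt and 37.0 to 43.1 in MstTg, which overlap, and 40.6 to 47.9 in Gal3Ko and 32.3 to 38.6 in Mst1Gal3, which do not. Rfc3 was called higher in MstTg against wt (0.31 ± 0.12, adjusted p = 0.0345). This call was lost in DESeq2 (0.0575), with only these groups in the fit (0.102), and without wt replicate 1 (0.0569), 2 (0.0625) or 3 (0.120), MstTg replicate 3 (0.0626) or 5 (0.0837) or Gal3Ko replicate 6 (0.0511). Rfc2, Rfc4 and Rfc5 were called in neither comparison. Exons of these 3 genes overlap Lat2 (15.1% of bases), Eif4a2 (12.7%) and Wsb2 (10.7%) on the opposite strand, so their counts are uncertain.

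RPA coats single-stranded DNA at forks and in repair. Rpa3, its smallest subunit, had 3.15 to 4.33 CPM in wt and 2.20 to 3.28 CPM in MstTg. It fell by 0.48 ± 0.13 (adjusted p = 0.00238), while in Mst1Gal3 against Gal3Ko the log2 fold change of -0.31 ± 0.13 missed the threshold (adjusted p = 0.0540). It passed there in DESeq2 (0.0446), limma-voom (0.0433) and with RLE factors (0.0482), and without MstTg replicate 3 (0.0483), Gal3Ko replicate 5 (0.0215) or 8 (0.0395) or Mst1Gal3 replicate 4 (0.0164). Rpa1 and Rpa2 were called in neither, with log2 fold changes of -0.10 and 0.09 in MstTg against wt. Lig1, the ligase that seals Okazaki fragments, had 2.23 to 3.30 CPM in wt and 3.50 to 5.09 CPM in MstTg, with no overlap. It rose by 0.59 ± 0.13 (1.5-fold, adjusted p = 0.000191), and its log2 fold change without galectin-3 was 0.12 ± 0.13 (adjusted p = 0.446). The interaction of Lig1 was -0.47 ± 0.18 (adjusted p = 0.265). Fen1, the flap endonuclease, was called in neither comparison, and 78.8% of its exon bases lie opposite the antisense gene Gm10143, so its counts are uncertain.

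The nucleotide enzymes held the largest fall as well as large rises. Dut encodes dUTPase, which breaks down dUTP and yields the dUMP that thymidylate synthase, the product of Tyms, methylates. Dut (plus strand, chr2:125247190-125258608) had lowest, median and highest levels of 8.62, 9.35 and 10.7 CPM in wt, 3.95, 5.32 and 6.47 CPM in MstTg and 9.08, 10.3 and 11.1 CPM in Gal3Ko. With both changes (Mst1Gal3) the libraries had 5.31, 4.94, 3.97, 6.66 and 5.47 CPM. Every library with the transgene was below every library without it. Dut fell by 0.88 ± 0.10 (1.83-fold lower, adjusted p = 6.93e-09) with galectin-3 and by 0.96 ± 0.11 (1.95-fold lower, adjusted p = 3.22e-09) without it, and the interaction was -0.09, with a 95% interval of -0.37 to 0.20.

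Tyms (minus strand, chr5:30058202-30073617) had lowest, median and highest levels of 1.23, 2.08 and 2.22 CPM in wt, 2.80, 3.86 and 4.30 CPM in MstTg and 1.73, 2.29 and 2.65 CPM in Gal3Ko. The Mst1Gal3 libraries had 2.66, 2.64, 2.91, 3.08 and 3.20 CPM, which met the top of the Gal3Ko range. Tyms rose by 0.93 ± 0.13 (1.91-fold, adjusted p = 3.97e-07) with galectin-3 and by 0.37 ± 0.13 (adjusted p = 0.0213) without it, a call lost without Mst1Gal3 replicate 5 (0.0606). The interaction was -0.57 ± 0.19 (adjusted p = 0.176). There were 0.204 ± 0.046 counts of Tyms per count of Dut in wt, 0.741 ± 0.199 in MstTg, 0.220 ± 0.040 in Gal3Ko and 0.563 ± 0.106 in Mst1Gal3. The pseudogene Tyms-ps is annotated, with the same limit as for Pcna.

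Ribonucleotide reductase makes deoxyribonucleotides from a large subunit, Rrm1, and a small one, Rrm2, which is known to be made mainly in S phase. Rrm1 (plus strand, chr7:102441695-102469771) had lowest, median and highest levels of 12.2, 13.2 and 14.4 CPM in wt, 11.8, 13.8 and 14.8 in MstTg and 11.8, 13.8 and 15.4 in Gal3Ko, and 12.4, 13.9, 11.2, 13.9 and 11.9 CPM in Mst1Gal3. Its groups all overlapped, at a log2 fold change of 0.01 (95% interval -0.13 to 0.15) in MstTg against wt. Rrm2 (plus strand, chr12:24708241-24714146) had lowest, median and highest levels of 1.5, 1.78 and 1.92 CPM in wt, 1.90, 2.61 and 3.40 CPM in MstTg and 1.11, 1.59 and 2.27 CPM in Gal3Ko. In Mst1Gal3 the libraries had 1.11, 1.15, 1.93, 2.07 and 0.899 CPM. The wt and MstTg ranges met at 1.90 to 1.92 CPM. Rrm2 rose by 0.58 ± 0.18 (1.49-fold, adjusted p = 0.00790) in MstTg against wt, and in Mst1Gal3 against Gal3Ko its log2 fold change was -0.19 ± 0.20 (adjusted p = 0.446).

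**Figure D3:**
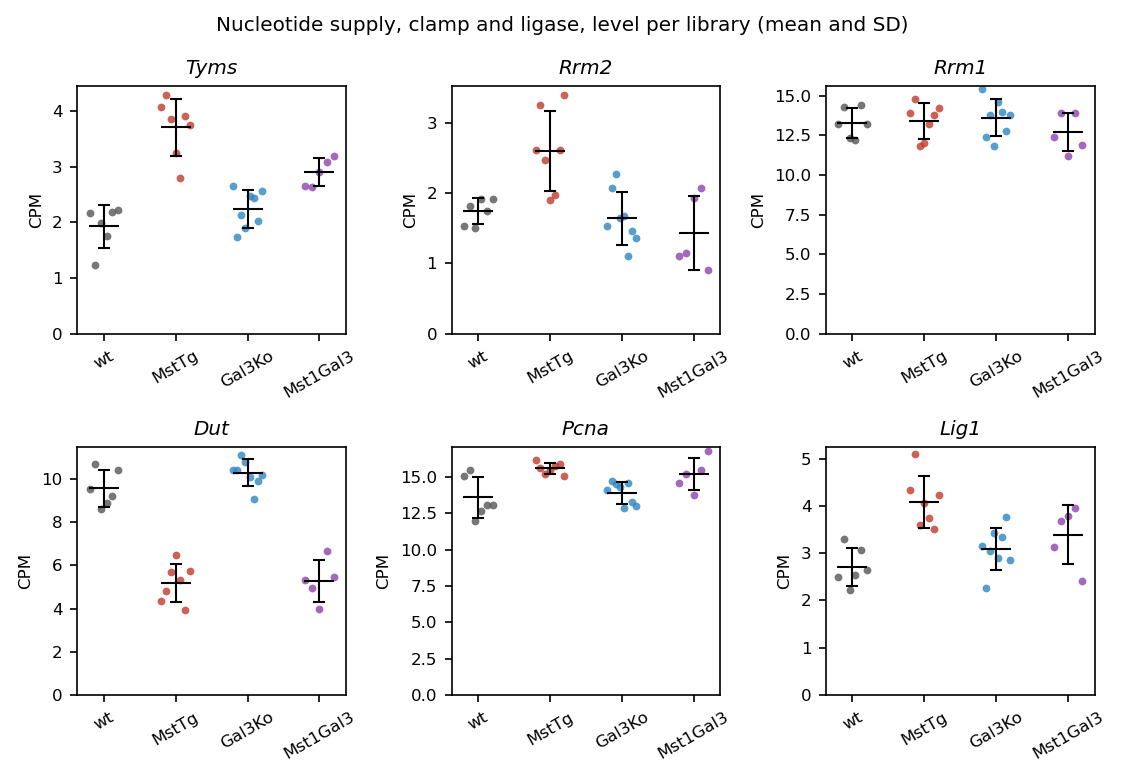
Level in CPM (vertical axis, from 0) of 4 nucleotide genes, the clamp Pcna and the ligase Lig1 in each library, by group. Points are libraries and black bars the mean and SD. Dut lies at 3.95 to 6.66 CPM in the groups with the transgene and at 8.62 to 11.1 CPM in those without it, while Rrm1 overlaps in all groups.

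Without galectin-3, Mst-1 moved fewer of the 36 genes past the threshold. In Mst1Gal3 against Gal3Ko, which shares no library with MstTg against wt, 6 genes were called higher and 6 lower, where 26.9% and 25.6% of all genes were called, 52.5% in either direction. The median log2 fold change was -0.03 against 0.01 for all genes. Mcm3, Mcm6, Orc2, Pola2, Pole3 and Tyms were called higher in both comparisons, and Orc3, Pold2, Rfc1 and Dut lower in both. No gene was called in opposite directions, and 14 were called in neither. A further 9 were called higher with galectin-3 and not without it. Of the 36 genes Mcm2 alone passed the test of the difference, the interaction, where 0.656% of all genes passed. Yet 27 of the 36 interaction estimates were below 0, or 75%, against 47.5% of all genes. At an unadjusted p under 0.05 in that edgeR test there were 8, where 12.2% of all genes were under that p. Rrm2 (-0.77 ± 0.27) and Mcm5 (-0.76 ± 0.23) had estimates close to that of Mcm2 (-0.75 ± 0.14), with larger errors. Without galectin-3 the library ranges were separate for 2 higher genes (Mcm3 and Mcm6) and 3 lower ones (Orc3, Rfc1 and Dut), where 16.5% and 14.5% of all genes were separate.

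With Mst-1 overexpressed, 5 of the 36 genes were lower in the knockout. In Mst1Gal3 against MstTg, Mcm2, Mcm3, Mcm4, Mcm5 and Rrm2 were called lower and none higher, where 2.35% of all genes were called lower and 2.54% higher, 4.89% in all. Mcm2 fell by 0.76 ± 0.10 (1.7-fold lower, adjusted p = 7.48e-06), Mcm5 by 0.70 ± 0.16 (adjusted p = 0.00642) and Rrm2 by 0.86 ± 0.19 (1.82-fold lower, adjusted p = 0.00625). Mcm4 fell by 0.37 ± 0.09 (adjusted p = 0.0120), with 8.54, 9.48 and 10.8 CPM as its lowest, median and highest levels in MstTg and 7.73, 7.29, 8.29, 6.74 and 7.01 CPM in Mst1Gal3. Mcm3 fell by 0.37 ± 0.10 (adjusted p = 0.0272), the least stable of the 5 calls, which was lost without MstTg replicate 2 (0.0538), without Mst1Gal3 replicate 1 (0.0833), 2 (0.0588) or 5 (0.0592), and without the 6 libraries of high atrial level (0.0878). The ranges of Mcm2, Mcm4, Mcm5 and Pold3 were separate in this comparison, where 2% of all genes were separate and lower. None of the 36 was separate and higher, against 1.31% of all genes. Of the 36 log2 fold changes 27 were below 0, or 75.0%, against 45.5% of all genes, and the median was -0.09 against 0.02. Whether the knockout acted differently with and without Mst-1 is tested by the interaction, which passed for Mcm2 and not for Mcm3, Mcm4, Mcm5 and Rrm2 (adjusted p = 0.459, 0.354, 0.126 and 0.201).

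In the libraries labelled Gal3Ko against wt no gene of the 36 was called in edgeR, DESeq2 or limma-voom, where 0.354% of all genes were called in edgeR. At an unadjusted p under 0.05 there were 4 (Mcm6, Mcm7, Orc2 and Rfc3), with log2 fold changes of -0.19, 0.27, -0.17 and 0.27, where 6.66% of all genes were under that p. This comparison shares the wt libraries with MstTg against wt, and Mst1Gal3 against MstTg shares the MstTg libraries with it.

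**Figure D4:**
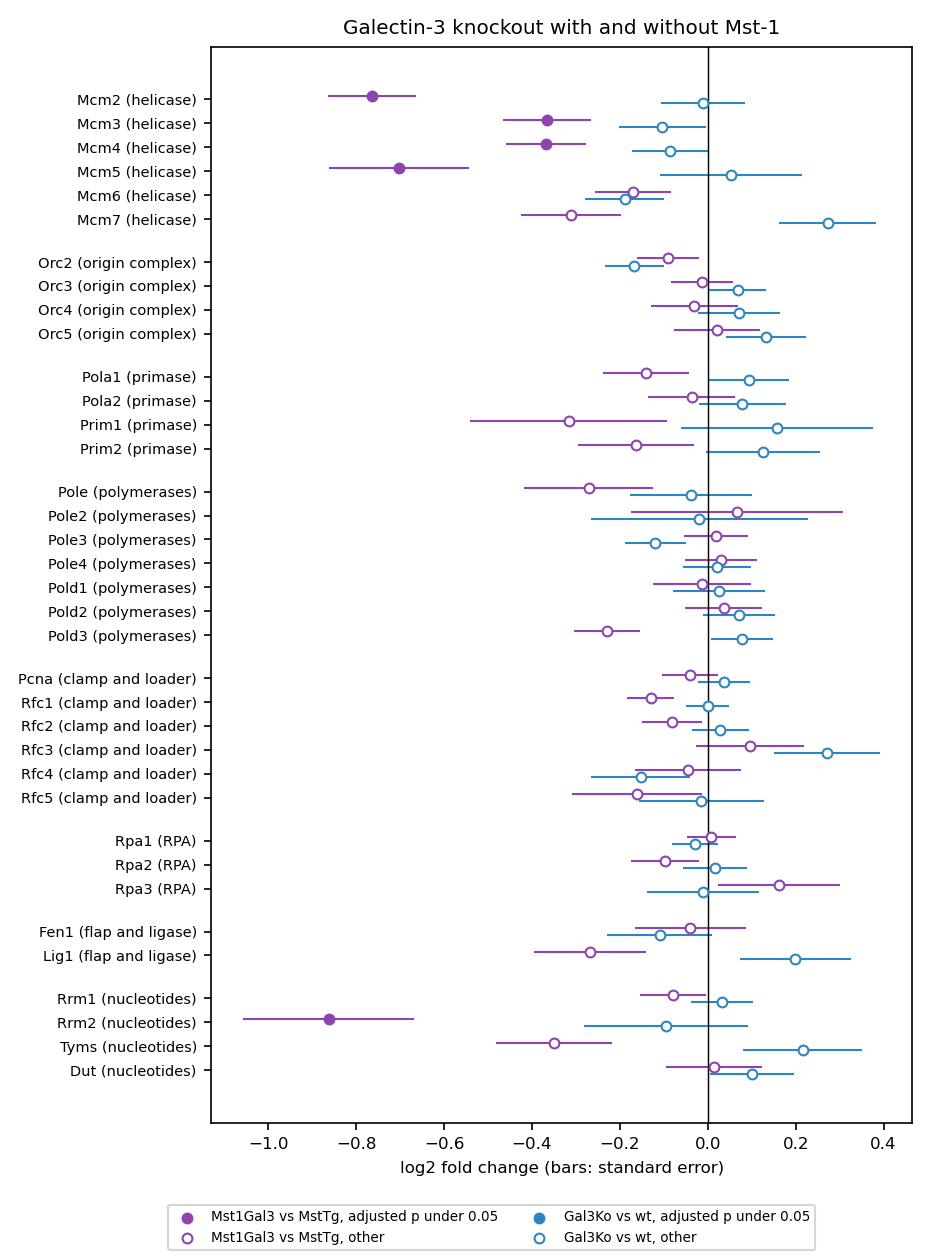
Log2 fold change (horizontal axis) of each of the 36 genes, grouped by role, in Mst1Gal3 against MstTg (purple) and Gal3Ko against wt (blue). Bars are standard errors and filled points have an adjusted p under 0.05. Mcm2, Mcm3, Mcm4, Mcm5 and Rrm2 are the filled points, from -0.37 to -0.86.

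How the libraries are scaled bears on the smaller changes. With library totals alone, the median log2 fold change of all genes moved up by 0.25 in MstTg against wt and by 0.23 in Mst1Gal3 against Gal3Ko, and the share of called genes that were higher moved from 51.3% to 78.2% and from 51.3% to 79.3%. The 36 genes then had 25 higher and 1 lower in the first comparison and 17 higher and 1 lower in the second, Dut being the lower one in each. The falls of Orc3, Pold2 and Rfc1 in both, of Rpa3 in the first and of Orc5 and Pold3 in the second were no longer called, and Rfc1 turned to 0.06 in the first. Mcm2, Mcm4, Mcm5 and Mcm7 were then called higher without galectin-3 too, at 0.27, 0.40, 0.47 and 0.38, so that all 6 helicase genes were called there, and the rise of Mcm2 was close to that of the median gene (0.24). In Mst1Gal3 against MstTg the same scaling took the share of called genes that were higher from 51.9% to 19.6% and the 36 genes from 5 to 6 lower, Pold3 being added. The interaction of Mcm2 was -0.77 (adjusted p = 0.0152) with library totals. Library totals include the counts of the mitochondrial genome, whose share was lower in the groups with the transgene. With TMM on counts without that genome, 15 of the 36 genes were higher and 5 lower in MstTg against wt. In Mst1Gal3 against Gal3Ko 6 were higher and 6 lower under that setting. The part of the mitochondrial share in the shift was not tested. Counts of the other gene lists below are with TMM, and for each list of replication, cell-cycle and repair genes library totals gave more genes called higher in both Mst-1 comparisons, for example to 20 and 15 of the 22 mitosis genes in the Mst-1 comparisons.

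**Figure D5:**
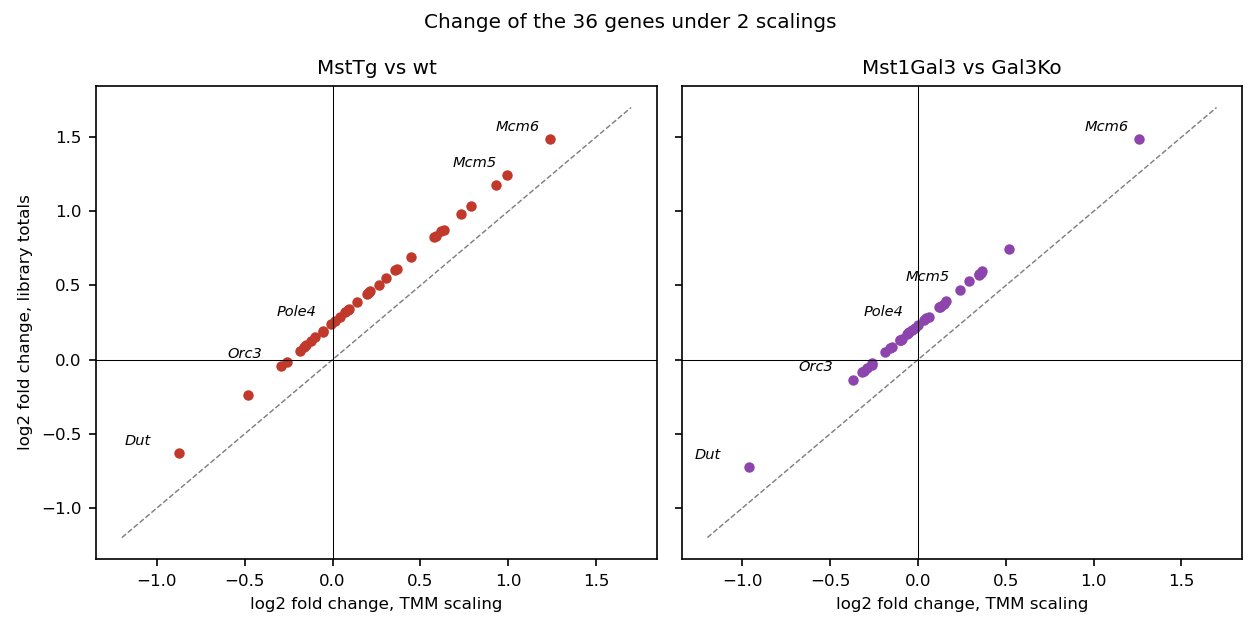
Log2 fold change of each of the 36 genes with TMM scaling (horizontal axis) and with library totals (vertical axis), in MstTg against wt (left) and Mst1Gal3 against Gal3Ko (right). Points are genes and the dashed line marks equal values. Nearly parallel to that line, the genes lie above it by about the shift of the median gene, 0.25 and 0.23, and Dut stays below 0.

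The further lists of replication and cell-cycle genes are read against the 55% and 52.5% of all genes called in the Mst-1 comparisons. Most were near or below those shares, and the mitosis list in MstTg against wt was the one farthest above. Those shares join both directions, and in MstTg against wt 28.2% of all genes were called higher and 26.8% lower. Calls there leaned to higher for licensing and firing (10 higher, 4 lower), fork (11 and 2) and G1 and S genes (8 and 2). The same held for mitosis (18 and 1) and repair (7 and 3), while the mitochondrial DNA list had 6 lower and none higher. Nucleotide supply (3 and 3) and the E2F list (3 and 2) were near even. Of 19 measured genes of licensing and origin firing, 10 were called higher and 4 lower in MstTg against wt, with a median of 0.32, and 3 higher and 3 lower in Mst1Gal3 against Gal3Ko, with a median of 0.09. That is 73.7% and 31.6% called. Geminin (Gmnn), which blocks relicensing, fell by 1.62 ± 0.11 (adjusted p = 4.54e-14) and 1.21 ± 0.12 (adjusted p = 1.60e-10). Mcm10 and the GINS subunit Gins2 rose in MstTg against wt, by 0.95 ± 0.29 (adjusted p = 0.00538) and 0.90 ± 0.27 (adjusted p = 0.00579). Of 23 fork and chromatin assembly genes, 11 were higher and 2 lower with galectin-3, and 6 and 2 without it, or 56.5% and 34.8% called. Clspn, an adaptor of the replication checkpoint, Top2a, a topoisomerase, and Chaf1a, a subunit of the histone chaperone CAF-1, rose with galectin-3, by 1.14, 1.05 and 0.80, and without it by 0.61, 0.77 and 0.49. Clspn and Chaf1a were also lower in Mst1Gal3 than in MstTg, by 0.97 ± 0.23 (adjusted p = 0.00890) and 0.45 ± 0.11 (adjusted p = 0.0169).

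Of 13 further genes of nucleotide supply, 3 were called higher and 3 lower with galectin-3 and 3 and 4 without it, so the shares called (46.2% and 53.8%) were near or below those of all genes. Shmt1, which feeds one-carbon units to thymidylate synthesis, fell by 1.16 ± 0.15 and 1.13 ± 0.16, and Dguok, the mitochondrial deoxyguanosine kinase, fell by 0.52 ± 0.07 and 0.41 ± 0.07, the second call being lost with library totals (0.0734). Cmpk2, a nucleotide kinase, rose by 0.41 ± 0.13 (adjusted p = 0.00702) with galectin-3 and fell by 0.57 ± 0.14 (adjusted p = 0.000796) without it, with an interaction of -0.98 ± 0.19 (adjusted p = 0.0104). Of 10 genes that copy or transcribe mitochondrial DNA, 6 were called lower, none higher and 4 not with galectin-3, and 5 lower, none higher and 5 not without it, where 26.8% and 25.6% of all genes were called lower. With library totals these counts were 5 lower and 1 higher, and 2 lower and 1 higher, and the median log2 fold change without galectin-3 was 0.01, with 5 genes on each side of 0. Tfb2m, a mitochondrial transcription factor, Mgme1, a mitochondrial exonuclease, and Polrmt, the mitochondrial RNA polymerase, fell by 0.72 ± 0.08, 0.70 ± 0.08 and 0.62 ± 0.09 in MstTg against wt. The share of counts from the mitochondrial genome was lower in the same groups, and its part in these changes was not tested.

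Among 15 E2F and retinoblastoma genes, 3 were called higher and 2 lower with galectin-3, and 4 and 4 without it. The 33.3% and 53.3% called were below and near the shares of all genes. E2f1, an activating E2F, rose by 1.52 ± 0.25 (adjusted p = 4.46e-06) and 0.97 ± 0.27 (adjusted p = 0.00297), and was lower in Mst1Gal3 than in MstTg by 0.88 ± 0.24 (adjusted p = 0.0276). E2f3 rose by 0.69 ± 0.08 and 0.79 ± 0.08, and the E2F partner Tfdp2 fell by 0.68 ± 0.06 and 0.87 ± 0.07. Of 16 cyclins, their kinases and inhibitors of G1 and S, 8 were higher and 2 lower with galectin-3, and 5 and 5 without it, or 62.5% called in each. The inhibitor Cdkn2b rose by 1.47 ± 0.28 and 1.78 ± 0.26, the inhibitor Cdkn1c fell by 1.26 ± 0.17 and 0.76 ± 0.18, and cyclin A2 (Ccna2) rose by 1.22 ± 0.26 (adjusted p = 0.000200) in MstTg against wt, with 0.50 ± 0.27 (adjusted p = 0.126) without galectin-3.

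Of 22 mitosis genes, 18 were called higher and 1 lower in MstTg against wt, with a median of 0.93, and 5 and 1 in Mst1Gal3 against Gal3Ko, with a median of 0.44. These are 86.4% and 27.3% called, above and below the shares of all genes. Kif11, a spindle motor, rose by 1.72 ± 0.14 and 1.77 ± 0.14, the kinetochore gene Cenpf was called 4.56-fold and 6.33-fold lower, and Birc5, a subunit of the chromosomal passenger complex, rose by 1.56 ± 0.34 in the first and had 0.58 ± 0.33 (adjusted p = 0.148) in the second. Of 19 repair and translesion genes, 7 were higher and 3 lower with galectin-3, and 2 and 3 without it, or 52.6% and 26.3% called, near and below the shares of all genes. Brca1 and Fancd2, of repair at damaged forks, rose by 1.14 ± 0.22 and 1.04 ± 0.27 in MstTg against wt, and the repair polymerase gene Polq fell by 1.20 ± 0.11 and 0.70 ± 0.11. None of the 19 was called in Mst1Gal3 against MstTg, where 2 of the 22 mitosis genes were called lower.

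Markers of some cell types were called in the Mst-1 comparisons, and those of others were not. None of 5 erythroid and 2 measured lymphocyte markers was called in either. All 5 erythroid log2 fold changes were below 0 in both, with medians of -0.53 and -1.22. These markers summed to 34 to 335 CPM in wt, 17.7 to 184 in MstTg, 27.5 to 383 in Gal3Ko and 9.06 to 200 in Mst1Gal3. With so wide a spread, the lack of a call does not show a lack of change. Of 6 mural markers 1 was called higher and 2 lower with galectin-3, and 2 and 2 without it. Of 3 measured mesothelial markers 2 were called lower with galectin-3 and none without it. Of 4 measured atrial markers 1, Nppa, was called higher in each, by 4.97 and 4.40. The other 3, Myl4, Myl7 and Sln, which set the libraries of high atrial level, were called in neither. With Nppa the 4 summed to 47.1 to 112 CPM in wt, 2000 to 2680 in MstTg, 51.4 to 252 in Gal3Ko and 1080 to 2110 in Mst1Gal3. The 7 measured of 8 markers of proliferating cells, which overlap the mitosis list in all but Top2a, summed to 8.41 to 18.9 CPM in wt, 15.8 to 39.2 in MstTg, 9.54 to 15.8 in Gal3Ko and 11.3 to 22.4 in Mst1Gal3. All 7 were called higher in MstTg against wt, 2 in Mst1Gal3 against Gal3Ko and none in Mst1Gal3 against MstTg, where 5 were lower at an unadjusted p under 0.05, a p that 18.3% of all genes reached in either direction. The 8 fibroblast markers were all called higher in both Mst-1 comparisons, and summed to 834 to 1150 CPM in wt, 2990 to 3620 in MstTg, 806 to 992 in Gal3Ko and 2300 to 3030 in Mst1Gal3. Of 7 endothelial markers, 6 were called lower in each, with sums of 870 to 1020, 604 to 725, 818 to 939 and 624 to 705 CPM. The 7 cardiomyocyte markers summed to 43700 to 49300 CPM in wt, 32900 to 44100 in MstTg, 47600 to 56100 in Gal3Ko and 39700 to 49900 in Mst1Gal3. Of them 6 and 5 were called lower in the Mst-1 comparisons, and 5 and 4 with library totals, while Actc1, a cardiac actin, was called higher in both, by 0.41 ± 0.09 and 0.61 ± 0.09. The endothelial counts were 4 and 5 lower under that scaling. The 7 macrophage markers summed to 174 to 325 CPM in wt, 223 to 267 in MstTg, 180 to 277 in Gal3Ko and 237 to 287 in Mst1Gal3. Cd68 and Cx3cr1 among them were called higher in both, Cd68 by 1.11 ± 0.14 and 1.47 ± 0.14, and the other 5 in neither. With library totals 3 and 7 of the 7 were called higher. The part of these cell markers in the changes of the replication genes was not tested.

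With TMM scaling the 36 genes showed little shared variation within groups. Over the 26 libraries, with each group's mean removed, the median Pearson r of log2 CPM over all 630 pairs was 0.04, and 25 pairs exceeded 0.5. With library totals in place of TMM the median was 0.21 and 64 pairs exceeded 0.5. These correlations are a description over libraries that share their depth and scaling within each pair. The within-group spread was smallest for Rfc1 (SD 0.0809 in log2 CPM, mean count 1010) and Rpa1 (0.0857, mean count 894). It was largest for Prim1 (0.369, mean count 27.7) and Pole2 (0.367, mean count 15). Counting noise at such low counts lowers r, and no r of other genes is given here. Of the 13 genes called higher in MstTg against wt that had a promoter window, 8 held an E2F-type match, as did 3 of the 5 called lower and 11 of the 14 not called.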

How the data were processed

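RNA-seq counts of 26 left ventricle libraries in 4 groups, taken from the sample titles, were analysed. The authors' deposited table gives unnormalized whole-number read counts for each gene. Per the submitters' processing notes, bcl2fastq 2.19.1.403, STAR and featureCounts were used with GRCm38. The sources used here give neither the annotation release nor the strand setting nor how multi-mapping reads were handled. Positions and exon lengths came from GENCODE M21, in which all 36 genes were found, and promoter windows from RefSeq (GRCm38.p6).

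Counts were tested with edgeR 4.0.16 in R 4.3.3 (TMM factors, filterByExpr, which removed 0 genes, robust glmQLFit and glmQLFTest, two-sided). All 26 libraries entered 1 fit with a mean per group, 22 residual degrees of freedom and a common dispersion equal to a biological variation coefficient of 0.114. P-values were adjusted by Benjamini-Hochberg over 15249 genes with a threshold of 0.05. One count at the lowest total equals 0.0538 CPM, and PCR copies cannot be told from independent molecules. The lowest mean count of any gene was 10, so the table holds no rarer gene. No replicate pair agreed within sampling noise (lowest chi-square per degree of freedom 4.97). The steps were run on simulated counts with known fold changes in a small part of the genes, in random directions. Those counts held no broad shift of many genes, so they did not test the scaling, and their outcome is not given here. Alternatives were RLE factors, library totals, TMM without mitochondrial genes, DESeq2 1.42.0, limma-voom (limma 3.58.1), other filters, only the compared groups, a replicate block and each library left out. A fit without the 6 libraries of high atrial level was chosen after seeing the data.

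The genes and all lists were chosen with earlier results of these data known. Every one of the 36 genes is named. Values in every library, or lowest, median and highest, are given for the 8 largest and 4 smallest changes in MstTg against wt, Pcna and Mcm2, and genes called for the interaction or Mst1Gal3 against MstTg. Of each other pathway list the 3 called genes of largest change are named.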

Additional observations from a re-analysis of the deposited data

Results flagged for a closer look

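Among 144 groups of values screened (36 genes in 4 groups), 8 held a library far from the others, and chance flags about 5% of such groups, or 1 in 20. Mcm2 and Mcm3 were both highest in wt replicate 4, at 8.15 and 6.40 CPM, where the next wt libraries had 6.06 and 4.75 CPM. Without that library Mcm2 rose by 0.88 and Mcm3 by 0.73 in MstTg against wt. Mcm5 was highest in MstTg replicate 2 (6.47 CPM, next 4.50), and without it the log2 fold change of Mcm5 was 0.87 against wt and -0.58 in Mst1Gal3 against MstTg. Orc5 was highest in Gal3Ko replicate 5 (9.99 CPM), and Pole2 in MstTg replicate 1 (1.13 CPM, 25 counts). The lowest libraries set apart were Pole in Mst1Gal3 replicate 2 (3.13 CPM), Pold3 in wt replicate 2 (7.29 CPM) and Rpa1 in Mst1Gal3 replicate 5 (33.6 CPM). The Mst-1 response of Mcm2 differed between the backgrounds by the interaction test (-0.75).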

How the results depend on the processing

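Counts of the 36 genes kept within 1.5 times their values, apart from those given here. With library totals, MstTg against wt had 25 higher and 1 lower and Mst1Gal3 against Gal3Ko had 17 higher and 1 lower. The same scaling reversed Pole4 (to 0.24), Rfc1 (0.0603) and Rpa1 (0.15) in MstTg against wt, and Pole4 (0.24), Rfc2 (0.20), Rpa1 (0.18) and Rpa2 (0.21) in Mst1Gal3 against Gal3Ko. Interaction calls went from 1 to 2, all lower, with DESeq2 and without MstTg replicate 5 or Gal3Ko replicate 2, Mcm7 being added, and the cause was not tested. With 1 library left out, called genes numbered 18 to 20 in MstTg against wt, 11 to 13 in Mst1Gal3 against Gal3Ko, 4 to 5 in Mst1Gal3 against MstTg, 0 in Gal3Ko against wt and 1 to 2 for the interaction. The Mcm2 interaction was called in all 26 of these fits, from -0.71 to -0.84. The 34 equal-numbered pairs of libraries had a median correlation of 0.00694, from -0.28 to 0.234, with 11 over 0.1. The 217 pairs of other numbers had a median of -0.000261. Outside their group, 7 of 26 libraries correlated best with their own number. No chance figure was computed for that count, so these values do not exclude pairing. With the replicate number as a block, 20, 12, 0 and 4 genes were called in MstTg against wt, Mst1Gal3 against Gal3Ko, Gal3Ko against wt and Mst1Gal3 against MstTg, Mcm3 being lost in the last (adjusted p = 0.0620). Without the 6 libraries of high atrial level, 19, 11, 0 and 4 genes were called in the same order, and 1 for the interaction. Low counts limit Pole2 (5 to 25 per library) and Prim1 (13 to 48).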
